A study of Mus musculus with 18 samples.

Results

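The genes described here are 35 enzymes and transporters of fatty acid oxidation, followed in liver cells of mice with Mtdh knocked out (KO) and of wild types (WT). They were chosen by gene symbol, as 35 of the 16873 genes of the deposited table, and all 35 passed the filter on low values that left 14455 genes for testing. By textbook location, 18 members work in mitochondria (Acadm, Acadl, Acadvl, Acads, Acadsb, Acad10, Acaa2, Hadh, Hadha, Hadhb, Echs1, Cpt1a, Cpt2, Etfa, Etfb, Etfdh, Eci1 and Decr1). Another 11 work in peroxisomes (Abcd3, Ehhadh, Hsd17b4, Acaa1a, Acaa1b, Scp2, Crot, Decr2, Hacl1, Phyh and Hao2). The other 6 (Acsl1, Acsl5, Crat, Eci2, Acad11 and Amacr) are found in more than 1 place and were kept apart.

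Hepatocytes came from the livers of WT and Mtdh KO mice of matched age and were treated in 1 of 3 ways: with TNFa, with TGFb, or with medium (CM) that Py8119-EVP-treated Kupffer cells, the resident macrophages of the liver, had conditioned. Each combination of genotype and treatment holds 3 RNA-seq libraries, 18 in all, and no library is labelled untreated. All mice carried no tumor, per the labels. The sources used here do not give doses, times, age, sex, the kind of knockout or the cells that lack Mtdh. Mtdh encodes metadherin. Its own value lay between 10063 and 13725 in the 9 WT libraries and between 581 and 973 in the 9 KO libraries, in the direction of the labels. The labels do not say whether the 3 libraries of a group come from separate animals, so p-values measure the spread between libraries.

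Depth was estimated at 19.4 to 35.6 M reads per library (median 23.4), and each library correlated with the others of its group at 0.9416 to 0.957 on average. As for the labelled cell type, none of the 21 hepatocyte identity genes was at 0 throughout a group, and Alb, the gene of serum albumin, took 5.83% to 10.33% of all values. Other liver cells left a signal too. The 19 Kupffer cell and macrophage markers summed to 5459 to 8223 in WT libraries and to 8443 to 13626 in KO libraries. The hepatocyte list, of which Alb makes up most, summed to at least 2014949 in every library. In bulk RNA, fewer cells of a type and less RNA per cell cannot be told apart.

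Fatty acids are activated to acyl-CoA and then shortened by repeated rounds of dehydrogenation, hydration, a second dehydrogenation and thiolysis. Mitochondria take long chains in through the carnitine shuttle and pass the electrons of the first step to the respiratory chain. Peroxisomes shorten very long chains and carry out the steps that branched and 2-hydroxy fatty acids need, and hand the shortened products on. The liver relies on both routes in fasting, and the nuclear receptor PPARalpha drives many of these genes there.

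Short promoter sequences are shown because PPARalpha and its partner RXR bind pairs of the half-site AGGTCA. RefSeq promoter windows on build GRCm38.p6 were matched for 30 of the 35 members, and 5 of them (Acadm, Acadvl, Cpt1a, Echs1 and Scp2) held AGGTCA or its reverse complement TGACCT in the 250 bases before the start. Of all 32851 windows, counted singly and not by gene as the members were, 14.0% held it. The 4 stretches below are written 5′ to 3′ along the gene, with the half-site in capitals. They show the gate of the mitochondrial route, a hydratase, a very long-chain dehydrogenase and a peroxisomal thiolase.
Cpt1a, chr19:3323187-3323232, + strand: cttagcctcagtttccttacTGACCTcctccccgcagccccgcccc
Echs1, chr7:140116479-140116524, − strand: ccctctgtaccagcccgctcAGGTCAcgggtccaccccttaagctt
Acadvl, chr11:70015490-70015535, − strand: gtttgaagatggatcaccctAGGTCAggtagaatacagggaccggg
Scp2, chr4:108118631-108118676, − strand: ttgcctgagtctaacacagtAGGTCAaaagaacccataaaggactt

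The match began 94 bases before the start in Cpt1a, 83 in Echs1, 87 in Acadvl and 109 in Scp2. The full direct repeat AGGTCANAGGTCA, read on both strands, was in 0 of the 30 members' windows and in 0.0335% of all windows. A looser form, AGGNCANAGGNCA, was likewise in 0 of 30, against 0.338% of all windows. Every full repeat also matches the looser form and holds the half-site. These matches are descriptions of letters in a short window.

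Hadha and Hadhb, which encode the 2 subunits of the mitochondrial trifunctional protein, lie head to head on chromosome 5. The 85 bases between them are shown because both genes start beside it. The stretch has 69.4% G and C and 0 half-sites, and is written along the + strand of GRCm38.
Hadha-Hadhb gap, chr5:30155163-30155247, + strand: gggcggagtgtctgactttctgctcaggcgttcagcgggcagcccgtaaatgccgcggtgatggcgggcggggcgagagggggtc

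Values are given as the deposited normalized signal. Set per kilobase of the longest coding transcript and averaged over the 18 libraries, the members spanned a wide range of levels. Phyh was highest at 12000 per kb, followed by Acaa2 at 6740, Echs1 at 6030, Scp2 at 4440 and Hadh at 3910. Hao2 at 60.6 and Crat at 43.0 were lowest. Part of the transcript is shared with another gene in some members, by the share of its 50-base words. That share was 67.3% for Etfb, 62.4% for Hadhb, 55.6% for Hacl1, 41.4% for Scp2, 35.5% for Acaa1b, 34.0% for Acaa1a and 20.4% for Acad10. Acaa1a and Acaa1b share with each other, Acad10 shares with Acad12, and the rest share with pseudogenes or predicted genes. The sources used here do not say how the authors' counting split such reads, so these values are uncertain.

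**Figure D1:**
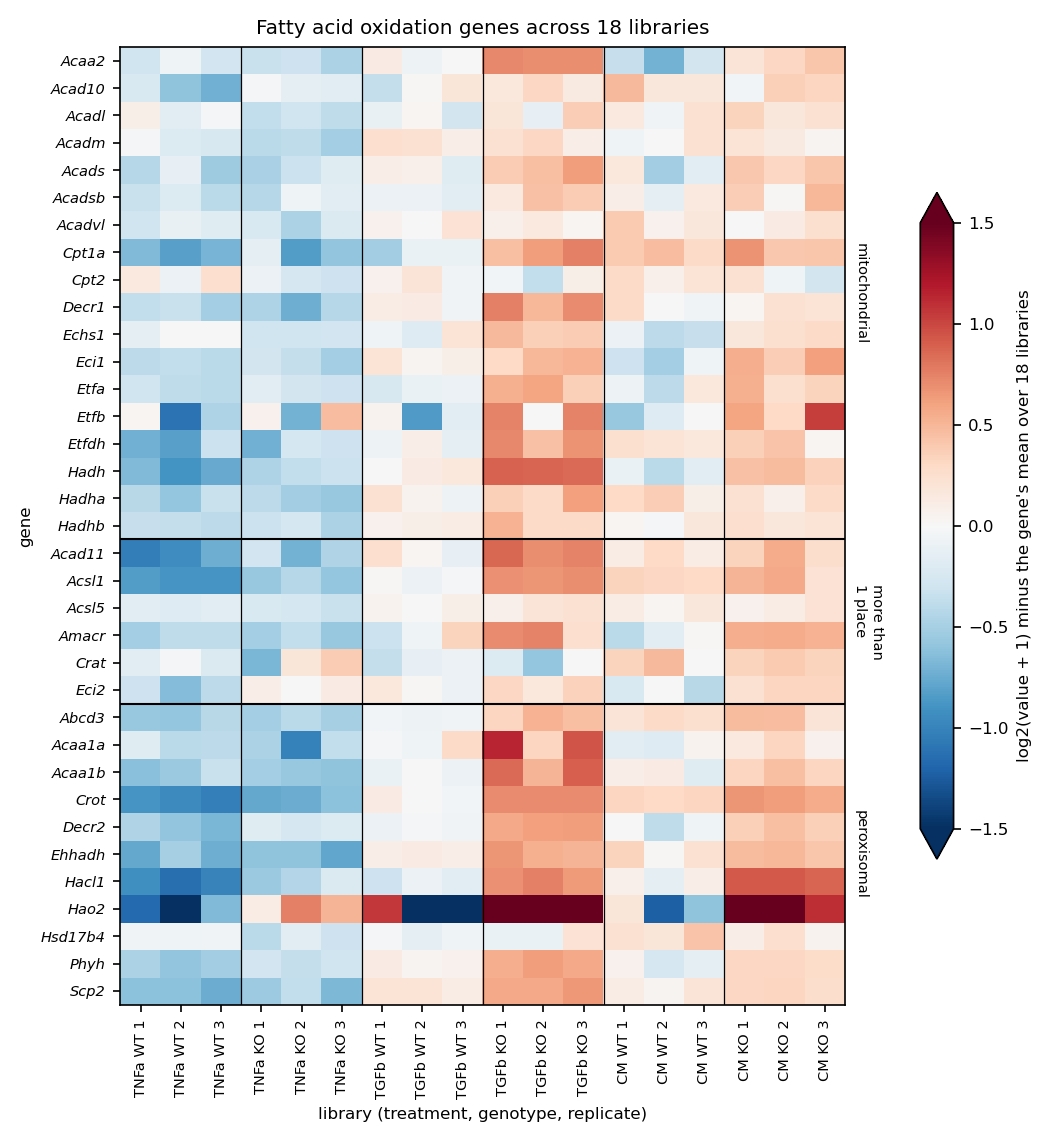
Each row is 1 of the 35 members and each column 1 of the 18 libraries, coloured by the log2 value minus that gene's mean over all libraries. Most rows are lowest in the TNFa columns and highest in the TGFb KO columns, and 25 of the 35 members had their highest group mean there.

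The group means had a common order. In 33 of 35 members the lowest of the 6 group means fell in a TNFa group, against 33.3% of all genes tested; the exceptions were Acaa2, lowest in CM WT, and Crat, lowest in TGFb KO. TGFb KO was the highest group for 25 members, against 20.2% of all genes. CM KO was highest for 6 members (Acadl, Crat, Etfb, Eci1, Eci2 and Hacl1; 11.7% of all genes) and CM WT for 4 (Acadvl, Cpt2, Acad10 and Hsd17b4; 19% of all genes). Together the members took 0.363% to 0.388% of all values in TNFa WT and 0.617% to 0.641% in TGFb KO.

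The first question was which of these genes differ between KO and WT hepatocytes under each treatment. With TNFa, 7 of 35 members rose in KO and 0 fell, where 4.19% of all genes tested rose and 3.7% fell (limma on log2 values, Benjamini-Hochberg adjusted p under 0.05). The 7 were Hadh, Eci2, Decr2, Acsl1, Acad11, Hacl1 and Hao2, and the median log2 difference over all members was 0.06. With TGFb, 24 members rose and 0 fell, against 7.25% and 4.95% of all genes, and the median was 0.49. With CM, 13 rose and 0 fell, against 5.62% and 3.77%, with a median of 0.26. The median over all genes tested lay between -0.01 and 0.02 in these 3 comparisons.

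Averaged over the treatments, 24 members rose and 0 fell, against 11.2% and 9.53% of all genes. Groups that did not overlap at all, with every KO library above every WT library, were found for 10 members with TNFa, 25 with TGFb and 18 with CM; the shares among all genes were 13.3%, 13.9% and 13.3%. The reverse, every KO library below every WT library, held for 6 members with TNFa and 0 with either other treatment, against 11.5%, 12.8% and 12.4% of all genes. In none of these 4 KO comparisons were 8 members called: Acadm, Acadl, Acadvl, Acad10, Cpt2, Crat, Acsl5 and Hsd17b4.

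Other quantities moved with these counts. The hepatocyte identity list, which holds no member, had 12 of 21 tested genes higher and 0 lower in KO with TGFb, 9 and 0 with CM, and 6 and 2 with TNFa. Its sum rose from 2924312 to 3057855 in TGFb WT to 3847914 to 4004793 in TGFb KO, and from 2566797 to 2666280 in CM WT to 3225537 to 3298313 in CM KO. With TNFa its sum was 2134339 to 2195408 in WT and 2014949 to 2117564 in KO. Alb alone made up most of these sums, with 7.44% to 7.93% of all values in TGFb WT and 9.76% to 10.33% in TGFb KO. With CM it took 6.8% to 6.94% in WT and 8.61% to 8.76% in KO, and with TNFa 6.15% to 6.25% and 5.83% to 6.28%. Of the 19 Kupffer cell and macrophage markers, 13, 12 and 10 rose in KO with TNFa, TGFb and CM, with 0 lower. Their summed values were 6959 to 8223 against 12390 to 13626, 5459 to 6254 against 8443 to 9721, and 5882 to 6519 against 9555 to 10094, with Timd4 at 0 throughout TGFb WT. Sinusoidal endothelial markers had 6, 4 and 1 of 19 higher, with sums of 3356 to 4458 in WT and 5075 to 7039 in KO and Gpihbp1 at 0 throughout TNFa WT. The part of these lists in the members' differences was not tested.

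**Figure D2:**
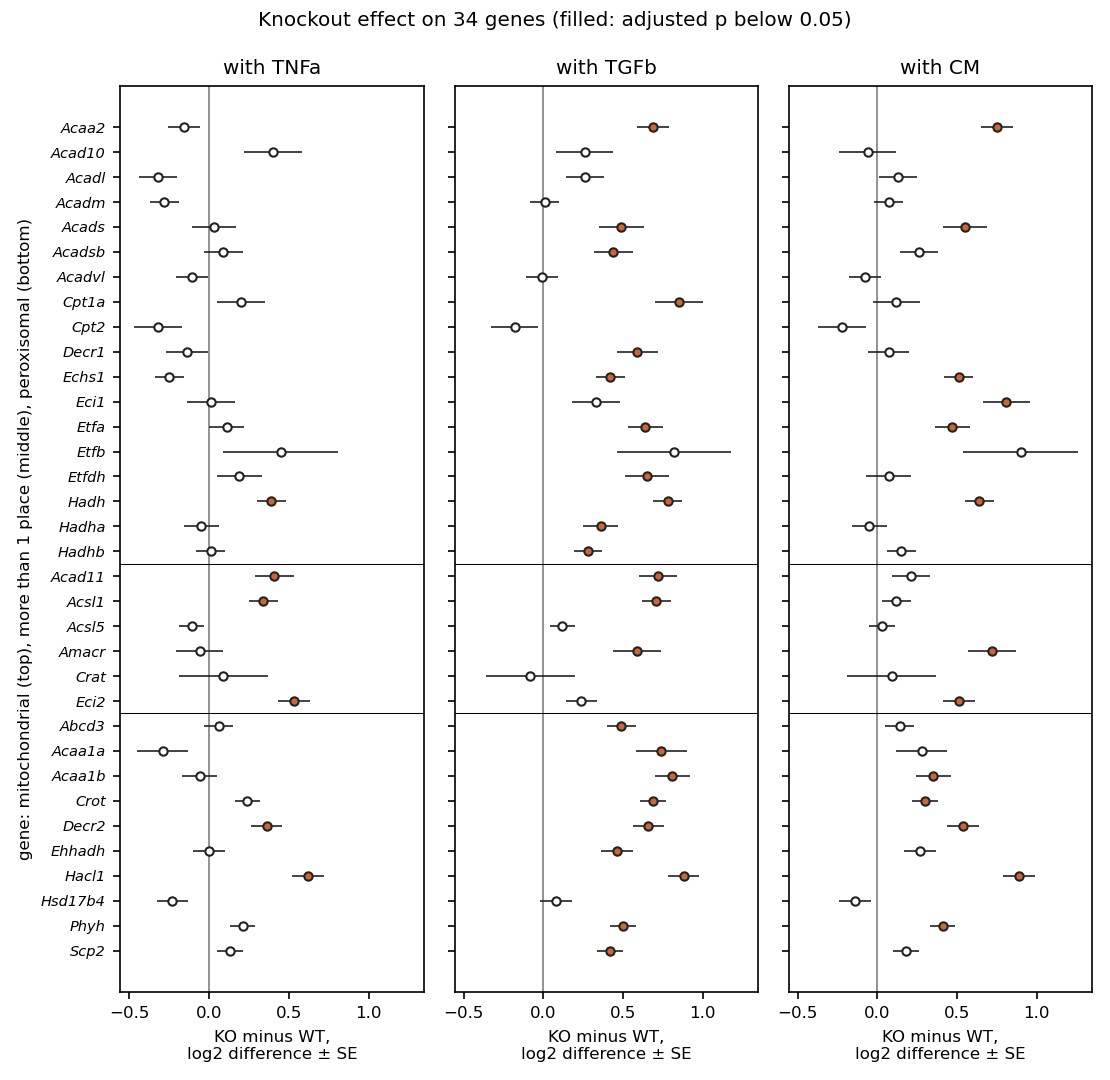
Points give the log2 difference of KO against WT for 34 members under TNFa, TGFb and CM, with bars of 1 standard error; Hao2 is left out because its differences of 2.22 to 3.43 would compress the axis. The TGFb points lie furthest to the right for most members.

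Activation and entry came first in the pathway. Acsl1, which attaches coenzyme A to long-chain fatty acids, measured 1656, 1601 and 1608 in TNFa WT and 1987, 2208 and 1972 in TNFa KO. With TGFb it measured 2992, 2779 and 2914 in WT and 4755, 4675 and 4784 in KO. With CM the values were 3719, 3674 and 3639 in WT and 4229, 4399 and 3429 in KO. The genotypes did not overlap with TNFa or TGFb, and overlapped with CM. The log2 differences were 0.34 ± 0.09 (SE; limma adjusted p = 0.0158), 0.71 ± 0.09 (limma adjusted p = 1.04e-06) and 0.12 ± 0.09 (limma adjusted p = 0.494). The TNFa call was lost without TNFa WT 2, TNFa WT 3 or TNFa KO 2 (limma adjusted p of 0.0507, 0.0564 and 0.0956).

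Cpt1a, the gate of the mitochondrial carnitine shuttle, had 704, 945 and 940 in TGFb WT and 1377, 1564 and 1699 in TGFb KO, without overlap. It rose by 0.85 ± 0.15 there (limma adjusted p = 0.000112), while with CM it measured 1315 ± 80.5 in WT and 1430 ± 155 in KO (SD, n = 3 each; difference 0.12 ± 0.15). Cpt2, its partner on the inner membrane, gave differences of -0.32 ± 0.15, -0.18 ± 0.15 and -0.22 ± 0.15 with TNFa, TGFb and CM, none of which passed, nor did their average of -0.24 ± 0.09 (limma adjusted p = 0.0557). Acsl5 and Crat, a second synthetase and the carnitine acetyltransferase, had differences between -0.11 and 0.12 that did not pass either. Of the 5 members of this step, 2 rose with TGFb, 1 with TNFa and 0 with CM. Among all genes, 7.25%, 4.19% and 5.62% rose in these comparisons. With TNFa and CM the counts are too small to read as a result for the step.

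The acyl-CoA dehydrogenases divide the first oxidation step by chain length. Of the 7, 3 rose with TGFb (Acads, Acadsb and Acad11), 1 with CM (Acads) and 1 with TNFa (Acad11). Among all genes, 7.25%, 5.62% and 4.19% rose in these comparisons. The single calls with CM and TNFa are too few to read as a result for the step. Acads, for short chains, measured 1117, 1095 and 918 in TGFb WT and 1357, 1420 and 1599 in TGFb KO, without overlap (0.49 ± 0.14). Without TGFb WT 3 or TGFb KO 3 that call was lost (limma adjusted p of 0.141 and 0.118), and so was its CM call (0.55 ± 0.14) without CM WT 2 or CM KO 3 (0.134 and 0.051). Acadsb, for short branched chains, rose by 0.44 ± 0.12 with TGFb, a call lost without TGFb WT 3 or TGFb KO 2 (limma adjusted p of 0.0505 and 0.0556). Acad11 rose by 0.72 ± 0.12 with TGFb (limma adjusted p = 0.000102). Its TNFa difference of 0.41 ± 0.12 lost its call without TNFa WT 1, TNFa WT 2, TNFa KO 1 or TNFa KO 3 (limma adjusted p of 0.154, 0.0961, 0.199 and 0.0954).

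Dehydrogenases of medium, long and very long chains behaved otherwise. Acadm measured 3431, 3008 and 2949 in TNFa WT and 2615, 2669 and 2435 in TNFa KO, so that every KO library lay below every WT library, yet the difference of -0.28 ± 0.09 missed the threshold (limma adjusted p = 0.0648). With TGFb its values were 4146, 4073 and 3728 in WT and 4051, 4320 and 3705 in KO, which overlapped (0.01 ± 0.09). Acadl and Acadvl had differences between -0.32 and 0.26 and passed in no KO comparison.

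Electrons of that step leave through the electron transfer flavoprotein, made of Etfa and Etfb, and its oxidoreductase Etfdh. Etfa measured 2198, 2411 and 2430 in TGFb WT and 3744, 3901 and 3315 in TGFb KO, without overlap, a rise of 0.64 ± 0.11 (limma adjusted p = 0.000102). Its CM rise of 0.47 ± 0.11 lost the call without CM WT 2 or CM KO 1 (limma adjusted p of 0.0595 and 0.0512). Etfdh rose by 0.65 ± 0.14 with TGFb (limma adjusted p = 0.00162), from 1057 ± 88.1 to 1661 ± 168 (SD, n = 3 each), and its CM difference was 0.07 ± 0.14. Etfb was called only on the average of the treatments (0.72 ± 0.21, limma adjusted p = 0.0105), and its transcript shares the most words with another gene.

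The later mitochondrial steps held some of the largest differences. Hadh, the 3-hydroxyacyl-CoA dehydrogenase of short and medium chains, measured 4099, 3507 and 3856 in TNFa WT and 4710, 5023 and 5223 in TNFa KO. With TGFb it measured 6483, 7096 and 7241 in WT and 12062, 11948 and 11749 in KO, and with CM 6090, 4908 and 5808 in WT and 8808, 9062 and 8243 in KO. No KO library overlapped a WT library of the same treatment. Hadh rose by 0.39 ± 0.09 with TNFa (limma adjusted p = 0.00417), 0.78 ± 0.09 with TGFb (limma adjusted p = 9.76e-08) and 0.64 ± 0.09 with CM (limma adjusted p = 5.26e-06), and kept all 3 calls whichever library was left out.

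Acaa2, a mitochondrial thiolase, measured 7958, 9346 and 8018 in TNFa WT and 7787, 7894 and 7018 in TNFa KO. With TGFb the values were 10684, 9274 and 9851 in WT and 16170, 15843 and 15923 in KO. With CM they were 7677, 5995 and 8106 in WT and 11232, 12088 and 13027 in KO. KO libraries stood above WT with TGFb and CM, and below WT with TNFa, in each case without overlap. The rises were 0.69 ± 0.10 with TGFb (limma adjusted p = 5.41e-06) and 0.75 ± 0.10 with CM (limma adjusted p = 2.52e-06), while the TNFa difference of -0.16 ± 0.10 did not pass (limma adjusted p = 0.393).

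Echs1, the short-chain enoyl-CoA hydratase, had the same order. Its values were 8403, 9240 and 9224 in TNFa WT against 7487, 7481 and 7553 in KO, 8832, 8060 and 10658 in TGFb WT against 12941, 11777 and 12000 in KO, and 8668, 7015 and 7243 in CM WT against 10387, 10870 and 11271 in KO. None of these pairs of groups overlapped. It rose by 0.42 ± 0.09 with TGFb (limma adjusted p = 0.00181) and 0.51 ± 0.09 with CM (limma adjusted p = 0.000341), and with TNFa the difference was -0.25 ± 0.09 (limma adjusted p = 0.0964).

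The neighbours Hadha and Hadhb, on either side of the 85 bases printed above, showed small differences. With TNFa they were -0.05 ± 0.11 and 0.01 ± 0.09, and with CM -0.05 ± 0.11 and 0.15 ± 0.09. Both passed with TGFb, at 0.36 ± 0.11 (limma adjusted p = 0.0288) and 0.28 ± 0.09 (limma adjusted p = 0.039). For Hadha the call was lost without TGFb WT 2, TGFb WT 3 or TGFb KO 3 (limma adjusted p of 0.0841, 0.165 and 0.201), and for Hadhb without TGFb WT 1, 2 or 3 or TGFb KO 1 (0.111, 0.096, 0.0825 and 0.238). With every library scaled to the same total, neither passed (limma adjusted p of 0.141 and 0.214).

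Unsaturated fatty acids need the isomerases Eci1 and Eci2 and the dienoyl-CoA reductases Decr1, in mitochondria, and Decr2, in peroxisomes. Decr2 measured 1830, 1662 and 1554 in TNFa WT and 2205, 2097 and 2175 in KO. It had 2352, 2448 and 2414 in TGFb WT and 3698, 3832 and 3850 in KO, then 2480, 1920 and 2383 in CM WT and 3206, 3416 and 3202 in KO. KO was above WT in all 9 pairs of each treatment. Decr2 rose by 0.36 ± 0.10 (limma adjusted p = 0.0141), 0.66 ± 0.10 (limma adjusted p = 7.85e-06) and 0.54 ± 0.10 (limma adjusted p = 0.000221) with TNFa, TGFb and CM. Only the TNFa call was lost without single libraries, TNFa WT 3 or TNFa KO 1 (limma adjusted p of 0.096 and 0.0588).

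Decr1, the mitochondrial reductase, rose with TGFb (0.59 ± 0.13, limma adjusted p = 0.00146), where the WT values of 1014, 1021 and 905 lay below the KO values of 1580, 1321 and 1532. Its TNFa and CM differences of -0.14 ± 0.13 and 0.07 ± 0.13 did not pass. Eci2 measured 2361, 1874 and 2236 in TNFa WT and 3152, 2928 and 3208 in KO, a rise of 0.53 ± 0.10 (limma adjusted p = 0.00108). With CM it had 2498, 2928 and 2202 in WT and 3441, 3671 and 3668 in KO, a rise of 0.51 ± 0.10 (limma adjusted p = 0.00129). Its TGFb groups, 3275, 2984 and 2767 against 3648, 3278 and 3728, stood apart by a small step and the difference of 0.24 ± 0.10 did not pass (limma adjusted p = 0.148). Eci1 rose with CM (0.81 ± 0.15, limma adjusted p = 0.00039), and gave 0.01 ± 0.15 with TNFa and 0.33 ± 0.15 with TGFb.

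**Figure D3:**
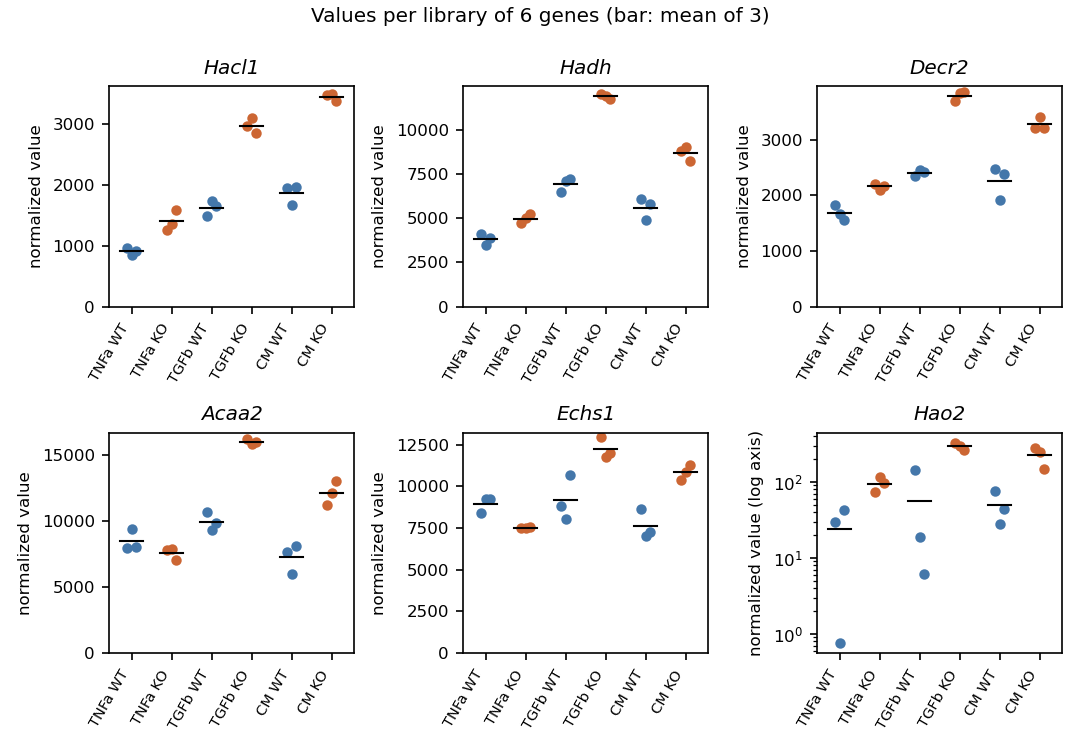
Deposited normalized values of Hacl1, Hadh, Decr2, Acaa2, Echs1 and Hao2 in each of the 18 libraries, with a line at each group mean. Hacl1, Hadh and Decr2 are higher in KO under all 3 treatments. Acaa2 and Echs1 are higher in KO with TGFb and CM and lower with TNFa, where neither difference was called.

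In the peroxisomal spiral, all members but Hsd17b4 rose with TGFb, where 7.25% of all genes rose. Abcd3, which carries acyl-CoA into the peroxisome, rose by 0.49 ± 0.09 (limma adjusted p = 0.000257) and Ehhadh, the L-bifunctional enzyme, by 0.46 ± 0.10 (limma adjusted p = 0.00115). Hsd17b4, the D-bifunctional enzyme that catalyses the same 2 steps on other substrates, had a difference of 0.08 ± 0.10 (limma adjusted p = 0.726). Scp2, a lipid carrier with thiolase activity, measured 12914, 12921 and 12145 in TGFb WT and 16588, 16647 and 17606 in KO, a rise of 0.42 ± 0.08 (limma adjusted p = 0.000476).

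Acaa1a and Acaa1b, a pair of peroxisomal thiolases, lie close together on chromosome 9 and share sequence. Acaa1b measured 1804, 1887 and 2205 in TNFa WT against 1954, 1868 and 1829 in KO, which overlapped. Its values were 2604, 2791 and 2616 in TGFb WT against 5002, 3970 and 5196 in KO, and 2970, 3041 and 2447 in CM WT against 3466, 3788 and 3472 in KO, both without overlap. It rose by 0.81 ± 0.11 with TGFb (limma adjusted p = 1.27e-06). Its CM rise of 0.35 ± 0.11 lost the call without CM WT 3, CM KO 1, CM KO 2 or CM KO 3 (limma adjusted p of 0.172, 0.0665, 0.138 and 0.0624) and when every library was scaled to the same total (0.106).

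Acaa1a measured 1098, 944 and 952 in TNFa WT against 902, 617 and 964 in KO. With TGFb it had 1234, 1198 and 1523 in WT against 2763, 1564 and 2405 in KO, and with CM 1118, 1092 and 1298 against 1386, 1557 and 1311. Its TGFb rise was 0.74 ± 0.16 (limma adjusted p = 0.00212). TGFb KO 2 was the lowest TGFb KO library for both of them, at 1564 just above the highest TGFb WT value of 1523 for Acaa1a.

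Crot, which turns shortened chains into carnitine esters for export to mitochondria, measured 2775, 2648 and 2513 in TNFa WT against 3004, 3052 and 3348 in KO. With TGFb it had 5576, 5095 and 4959 against 8336, 8369 and 8403, and with CM 6418, 6279 and 6393 against 8096, 7913 and 7549. KO libraries were higher without overlap in each. The differences were 0.24 ± 0.08 with TNFa (limma adjusted p = 0.0525, not called), 0.69 ± 0.08 with TGFb (limma adjusted p = 1.61e-07) and 0.30 ± 0.08 with CM (limma adjusted p = 0.0113). The CM call was lost without CM KO 1 (limma adjusted p = 0.0643) and with libraries scaled to the same total (0.069).

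Branched and 2-hydroxy chains pass through Phyh, Hacl1, Amacr and Hao2. Hacl1, the lyase that cleaves 2-hydroxyacyl-CoA in the breakdown of phytanic acid, measured 970, 843 and 917 in TNFa WT against 1254, 1362 and 1587 in KO. With TGFb it had 1481, 1732 and 1654 against 2962, 3101 and 2861, and with CM 1945, 1669 and 1971 against 3484, 3493 and 3376. The lowest KO library exceeded the highest WT library in each treatment. It rose by 0.62 ± 0.10 with TNFa (limma adjusted p = 0.000148), 0.88 ± 0.10 with TGFb (limma adjusted p = 2.72e-07) and 0.89 ± 0.10 with CM (limma adjusted p = 3.65e-07). Its average of 0.80 ± 0.06, a 1.74-fold rise, had the smallest p of the members (limma adjusted p = 1.21e-11). The calls of Hacl1 held without any 1 library. Its transcript shares 55.6% of its 50-base words with another gene, so its values are uncertain.

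Phyh, the hydroxylase just before Hacl1, rose with TGFb (0.50 ± 0.08, limma adjusted p = 3.35e-05), from 17621 ± 497 to 25005 ± 691, and with CM (0.41 ± 0.08, limma adjusted p = 0.000853), from 15580 ± 1795 to 20600.1 ± 255 (SD, n = 3 each). With TNFa the groups did not overlap and the difference of 0.21 ± 0.08 did not pass (limma adjusted p = 0.105). Amacr, the racemase for branched chains, is the 1 member on chromosome 15, which also holds Mtdh. It rose by 0.59 ± 0.15 with TGFb, a call lost without TGFb WT 1 or TGFb KO 1 (limma adjusted p of 0.0879 and 0.0539), and by 0.72 ± 0.15 with CM (limma adjusted p = 0.00145). With TNFa its difference was -0.06 ± 0.15.

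Hao2, a peroxisomal oxidase of 2-hydroxy acids, had the largest differences and the widest spread. It measured 29.5, 0.759 and 42.2 in TNFa WT against 72.9, 115 and 96.1 in KO. With TGFb it had 142, 19.1 and 6.23 against 330, 300 and 262, and with CM 76.6, 28.3 and 43.9 against 277, 248 and 146. All KO libraries lay above the WT libraries of their treatment. It rose by 2.83 ± 0.83 with TNFa (limma adjusted p = 0.0309) and 3.43 ± 0.83 with TGFb (limma adjusted p = 0.00483), and the CM difference of 2.22 ± 0.83 did not pass (limma adjusted p = 0.0989). TNFa WT 2, at about 1 read, carries much of the first. Without it the difference was 1.38 (limma adjusted p = 0.284), and the call was also lost without TNFa KO 1, 2 or 3 (0.0588, 0.0997 and 0.0756). Without TGFb WT 3 the TGFb difference was 2.47 (limma adjusted p = 0.0688).

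Across the 3 treatments, 7 members were higher in KO without overlap each time (Hadh, Eci2, Decr2, Crot, Hacl1, Phyh and Hao2), against 3.37% of all genes. Of these, 3 passed the test in all 3 treatments (Hadh, Decr2 and Hacl1), against 1.93% of all genes. The TNFa count of 7 called members fell to 4 without TNFa WT 2 and to 4 without TNFa KO 1. With TGFb, scaling libraries to the same total put the median of all genes at -0.12 in place of -0.01, and 20 members were then called, all higher, with a median of 0.38. On that scale the calls over all genes changed from 1048 higher and 716 lower to 830 higher and 1494 lower.

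Whether the KO difference itself depended on the treatment was tested with 1 F-test per gene. It passed for 6 members, Acaa2, Echs1, Acaa1b, Acsl1, Acaa1a and Crot, against 1.7% of all genes. Acaa2 (limma adjusted p = 0.000618), Echs1 (limma adjusted p = 0.0028) and Acaa1b (limma adjusted p = 0.00521) kept this call without any 1 library. For Acaa2 the KO difference was larger by 0.84 ± 0.14 with TGFb than with TNFa (limma adjusted p = 0.00171; 1.1% of all genes called) and by 0.90 ± 0.14 with CM than with TNFa (limma adjusted p = 0.00164; 0.63% of all genes). For Echs1 the corresponding values were 0.68 ± 0.13 (limma adjusted p = 0.00752) and 0.76 ± 0.13 (limma adjusted p = 0.00445).

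The KO difference of Acaa1b was larger by 0.87 ± 0.15 with TGFb than with TNFa (limma adjusted p = 0.00273) and that of Acaa1a by 1.03 ± 0.23 (limma adjusted p = 0.024). Acsl1 was the member whose KO difference fell between TGFb and CM, by 0.59 ± 0.13 on the log2 scale (limma adjusted p = 0.0293; 0.491% of all genes called). Decr1 (0.73 ± 0.18, limma adjusted p = 0.0412) and Crot (0.44 ± 0.11, limma adjusted p = 0.0454) also had a larger KO difference with TGFb than with TNFa. Decr1 did not pass the F-test. These contrasts share libraries, so they are not independent of each other, and they were not refitted without single libraries.

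The F-test calls of the last 3 members were fragile. Acsl1 lost its call without any 1 of 10 libraries, Acaa1a without any 1 of 12 and Crot without any 1 of 15, with limma adjusted p reaching 0.0891 (without TGFb WT 2), 0.108 (without TGFb KO 1) and 0.141 (without TGFb WT 3). The count of 6 members became 3 without TNFa WT 1, TNFa WT 3, TGFb WT 1, TGFb WT 2, TGFb KO 1, CM WT 1 or CM KO 3, and 10 without CM WT 3.

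Mitochondrial and peroxisomal members were then set side by side. With TGFb, 11 of 18 mitochondrial and 10 of 11 peroxisomal members rose in KO, where 7.25% of all genes rose, with median differences of 0.43 and 0.66. With TNFa, 1 of 18 and 3 of 11 rose, where 4.19% of all genes did, with medians of 0.01 and 0.13; the mitochondrial count is near that share. With CM, 6 of 18 and 5 of 11 rose, where 5.62% of all genes did, with medians of 0.14 and 0.30. Of the 6 members in more than 1 place, 3, 3 and 2 rose with TNFa, TGFb and CM. The median over all genes was within 0.02 of 0. Peroxisomal members had the larger median under each treatment; the choice of members was made with results known, and no test was made of the classes.

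A mean log2 value per library gives the same comparison with its spread. The 18 mitochondrial members averaged 10.30 ± 0.06 in TNFa WT, 10.31 ± 0.04 in TNFa KO, 10.64 ± 0.01 in TGFb WT, 11.06 ± 0.05 in TGFb KO, 10.65 ± 0.10 in CM WT and 10.94 ± 0.04 in CM KO (SD, n = 3 each). The 10 peroxisomal members without Hao2 averaged 11.17 ± 0.02, 11.27 ± 0.02, 11.75 ± 0.01, 12.32 ± 0.06, 11.83 ± 0.07 and 12.15 ± 0.06 in the same order. So the mitochondrial mean of the TNFa groups differed by less than its spread, and the peroxisomal mean by more.

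The difference of the 2 means within a library, peroxisomal minus mitochondrial, was 0.84 to 0.90 in TNFa WT and 0.92 to 0.98 in TNFa KO. It was 1.10 to 1.12 in TGFb WT and 1.25 to 1.27 in TGFb KO, and 1.15 to 1.20 in CM WT and 1.12 to 1.32 in CM KO. Genotypes did not overlap with TNFa or TGFb and overlapped with CM. KO minus WT, these came to 0.09, 0.15 and 0.04 with TNFa, TGFb and CM. With Hao2 counted they were 0.34, 0.41 and 0.21, so that this 1 low gene supplied most of each.

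**Figure D4:**
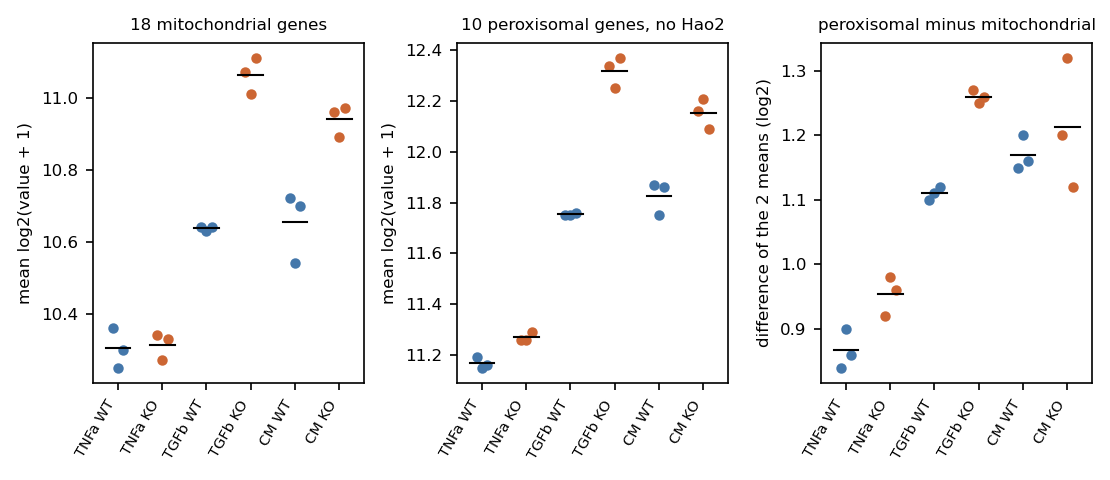
Mean log2(value + 1) per library of the 18 mitochondrial members, of the 10 peroxisomal members without Hao2, and the difference of the 2 means, with 1 point per library and a line at each group mean. The difference is 0.84 to 0.90 in TNFa WT and 1.25 to 1.27 in TGFb KO.

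Since no group was untreated, treatments were compared with each other within a genotype, with TNFa libraries shared by 2 of the 3 comparisons. In WT, 19 members were higher with TGFb than with TNFa and 0 lower (8.06% and 5.33% of all genes), with medians of 0.36 for mitochondrial and 0.60 for peroxisomal members. CM against TNFa gave 21 higher and 0 lower (6.81% and 5.46% of all genes), with medians of 0.31 and 0.76. Among the members called, Crot had the smallest p in both, at 0.98 ± 0.08 (limma adjusted p = 2.25e-10) and 1.27 ± 0.08 (limma adjusted p = 2.65e-12). Scp2, at 7335, 7335 and 6662 in TNFa WT and the TGFb WT values above, rose by 0.83 ± 0.08 with TGFb (limma adjusted p = 9.85e-09), and Acsl1 by 1.18 ± 0.09 with CM (limma adjusted p = 2.36e-10). With libraries scaled to the same total, the median of all genes stood at -0.11 for TGFb against TNFa in WT, and 15 members were called higher with 0 lower.

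The same comparisons were made in KO. With TGFb against TNFa, 29 members rose and 0 fell (12.3% and 10.1% of all genes), with medians of 0.73 for mitochondrial and 1.13 for peroxisomal members. CM against TNFa also gave 29 higher and 0 lower (8.38% and 4.32% of all genes), with medians of 0.65 and 0.85. Crot rose by 1.42 ± 0.08 with TGFb (limma adjusted p = 5.09e-14) and 1.33 ± 0.08 with CM (limma adjusted p = 2.44e-12). Hadh rose by 1.26 ± 0.09 with TGFb (limma adjusted p = 4.28e-12), and Hacl1 by 1.31 ± 0.10 with CM (limma adjusted p = 4.49e-10). With libraries scaled to the same total, the median of all genes stood at -0.29 and -0.17 in these comparisons, in place of -0.04 and -0.02, and 24 and 27 members were still called higher with 0 lower. Cpt2 and Crat were called in none of the 10 comparisons, which are the 4 of KO against WT and the 6 between treatments. The hepatocyte identity list, which holds no member, moved the same way. In KO, 19 of its 21 tested genes were higher with TGFb than with TNFa and 20 with CM, with medians of 1.0 and 0.67. In WT these counts were 16 and 14, with medians of 0.61 and 0.52, and 0 were lower in any of the 4 comparisons. Its part in the members' differences was not tested.

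**Figure D5:**
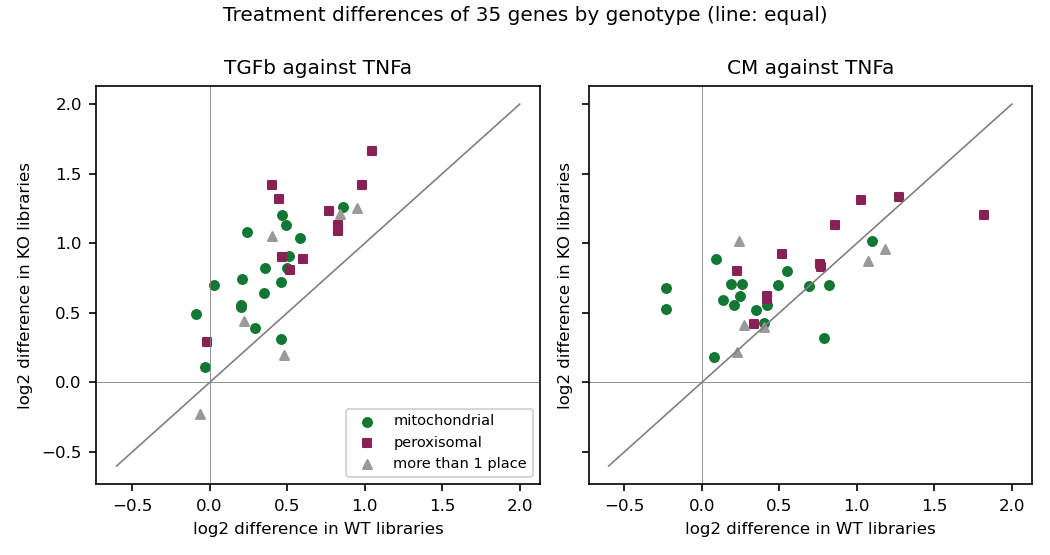
Log2 differences of the 35 members for TGFb against TNFa and CM against TNFa, with WT on the horizontal and KO on the vertical axis. The diagonal line marks equal differences, and markers give the location of the members. Most points lie above 0 on both axes, with Crot among the largest.

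CM and TGFb differed less from each other. In WT, 5 members were higher with CM and 2 lower (5.76% and 6.09% of all genes). Cpt1a was higher by 0.62 ± 0.15 (limma adjusted p = 0.00456), at 1323, 1391 and 1231 with CM, a call lost without TGFb WT 1 (0.48, limma adjusted p = 0.0559). Acaa2 fell by 0.46 ± 0.10 on the log2 scale (limma adjusted p = 0.00135), and Hadh by 0.31 ± 0.09 (limma adjusted p = 0.0152). The Hadh call was lost without TGFb WT 2, TGFb WT 3 or CM WT 2 (limma adjusted p of 0.0618, 0.0796 and 0.123). The count of 7 became 3 without TGFb WT 2 or TGFb WT 3.

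In KO, 0 members were higher with CM than with TGFb and 8 were lower (5.2% and 5.39% of all genes). Hadh fell by 0.45 ± 0.09 on the log2 scale (limma adjusted p = 0.000569) and Acaa2 by 0.40 ± 0.10 (limma adjusted p = 0.00587), the latter lost without CM KO 1 (limma adjusted p = 0.0513). Decr1, Acad11, Acaa1a, Acaa1b, Phyh and Scp2 were the others, and each lost its call without at least 1 library. The count was 4 without TGFb KO 1, 3 without TGFb KO 3, 2 without CM KO 1 and 3 without CM KO 3. Scaled to equal totals, it was 1 higher and 4 lower.

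Other genes of the pathway were read from lists in which no member appears. The shares of all genes that rose and fell in KO were 4.19% and 3.7% with TNFa, 7.25% and 4.95% with TGFb, and 5.62% and 3.77% with CM. Of 22 other mitochondrial fatty acid oxidation genes, 3 rose and 2 fell in KO with TNFa, 8 and 0 with TGFb, and 5 and 0 with CM. Ivd, isovaleryl-CoA dehydrogenase of leucine breakdown, and Acsm3 and Acsm5, which activate medium chains, had the smallest p on the average over treatments, at 1.04 ± 0.06, 1.29 ± 0.14 and 1.19 ± 0.13. Of 21 other peroxisomal genes of lipid breakdown, 5 rose and 0 fell with TNFa, 9 and 1 with TGFb, and 7 and 0 with CM. Cat, the catalase that removes the hydrogen peroxide of peroxisomal oxidation, rose by 0.54 ± 0.05 on average, Pecr, a peroxisomal enoyl-CoA reductase, by 1.11 ± 0.11, and the membrane protein Pxmp2 by 1.14 ± 0.11.

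Of 16 peroxisome assembly genes, 0 rose and 1 fell with TNFa, 1 and 0 with TGFb, and 2 and 0 with CM. Of all genes, 4.19%, 7.25% and 5.62% rose in these comparisons. On the average Pex26 fell by 0.36 ± 0.10 on the log2 scale. Pex7, the import receptor that Phyh, Acaa1a and Acaa1b use, rose by 0.25 ± 0.08 on the same average. Among 16 regulators of fatty acid oxidation, 2 rose and 3 fell on the average, where 11.2% of all genes rose and 9.53% fell. Prkaa2, a catalytic subunit of AMP-activated kinase, fell by 0.24 ± 0.06 on the log2 scale, Hnf4a, a hepatocyte transcription factor, by 0.20 ± 0.06, and Lpin1, a coactivator of PPARalpha, rose by 0.23 ± 0.06. Ppara itself, named after its values were seen, fell by 0.25 ± 0.09 on the log2 scale on average (limma adjusted p = 0.042), with differences of -0.38, 0.00 and -0.37 for TNFa, TGFb and CM that did not pass.

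Of 16 genes of ketogenesis and other PPARalpha targets, 4 rose and 1 fell with TNFa, 4 and 0 with TGFb, and 3 and 0 with CM. Among all genes, 4.19%, 7.25% and 5.62% rose in these comparisons. The list medians were 0.0, 0.14 and 0.11. Cd36, a fatty acid transporter that macrophages and endothelial cells also carry, rose by 1.21 ± 0.06 on average. Bdh1, which interconverts the ketone bodies, rose by 0.79 ± 0.11.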

How the data were processed

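Total RNA was depleted of ribosomal RNA and sequenced, per the labels' protocols. The authors deposited 1 table of normalized signal per gene and library, DESeq2-normalized per the file name; Partek, STAR 2.7.8a and DESeq2 with build mm39 are named in the submitters' processing notes, without order or settings. Whole reads were not recovered, since only 79.4% to 83.0% of a library's low values came within 0.05 reads of a whole number, so no count model was used. Depth is the summed values over the value of 1 read. log2(value + 1) was fitted with limma 3.58.1 (trend) in R 4.3.3 to 6 group means over 18 libraries, for genes at 10 or more in at least 3 libraries. Residual degrees of freedom were 12 and prior ones 17.0. Calls used Benjamini-Hochberg adjusted p under 0.05 over 14455 genes. The fit was tested on simulated data. Promoters are from RefSeq (GRCm38.p6); transcript lengths are from GENCODE on GRCm38. Proteins were not used here.

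The members and gene lists were chosen with earlier results of these data known. Values in every library are given for the called members with the smallest p in each comparison, for those called in the F-test and for those against the majority direction; other lists name at most 3 called genes with the smallest p on the average, of which 1 is not reported here. Markers of hepatocytes, macrophages, endothelium, stellate cells and bile duct were read; of stellate markers 0, 1 and 1 of 9 tested were called, higher, with TNFa, TGFb and CM, and of 8 bile duct markers 2, 0 and 0, lower. Alternatives were other pseudocounts (0.5 and 5), filters, scalings, a fit on the compared groups alone, a replicate block and leaving out each library. A mean without Hao2 was added after seeing the data.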

Additional observations from a re-analysis of the deposited data

Results flagged for a closer look

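The KO difference depended on the treatment in 6 members by the F-test over the treatments. The limma adjusted p was 0.000618 for Acaa2, with KO differences of -0.16, 0.69 and 0.75 for TNFa, TGFb and CM. For Echs1 it was 0.0028, with -0.25, 0.42 and 0.51. Both genes stood lower in KO with TNFa and higher with the other treatments, in 3 of 3 libraries each time. The TNFa difference was called for neither gene, and 11.5% of all genes were lower in KO with TNFa without overlap. For Acaa1b it was 0.00521, with -0.06, 0.81 and 0.35, and for Acaa1a 0.0411, with -0.29, 0.74 and 0.28. For Acsl1 it was 0.0305, with 0.34, 0.71 and 0.12, and for Crot 0.0486, with 0.24, 0.69 and 0.30. The last 3 lose the call without single libraries.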

How the results depend on the processing

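No called result changed direction under any alternative that was run. The KO average gained 1 lower call, Cpt2, with equal totals, quantile normalization or a mean of at least 50, and without TNFa WT 2, TNFa KO 1, TGFb WT 3, TGFb KO 3, CM WT 2 or CM KO 1. CM against TNFa in WT gained 1 with equal totals or without CM WT 1 (Echs1), and 1 without CM WT 3 (Acaa2). Pseudocounts of 0.5 and 5, a mean of at least 50 and recomputed median-of-ratios scaling each kept all 187 member calls they could test. Of those calls, 26 were lost with equal library totals, 7 with quantile normalization, 5 without the filter, and 20 of 157 with only the groups compared; leaving out single libraries lost 152 of 1482. CM against TGFb in WT had 3 members called with only the groups compared, and CM against TGFb in KO had 5 with equal totals and 5 with quantile normalization. Over all genes, only the groups compared gave 719, 795 and 904 calls for KO with TNFa, KO with CM and CM against TNFa in WT (1141, 1358 and 1774 otherwise). Equal totals gave 4875 (1119 higher, 3756 lower) and 2784 (878 higher, 1906 lower) for TGFb and CM against TNFa in KO, against 3237 (1779 and 1458) and 1835 (1211 and 624). Without the filter the F-test called 150 genes (246 otherwise). The cause was not tested.

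Leaving out 1 library at a time, members called ranged from 4 to 6 for KO against WT with TNFa, 19 to 24 with TGFb, 10 to 14 with CM and 23 to 25 on average. For TGFb against TNFa, CM against TNFa and CM against TGFb the ranges were 15 to 19, 18 to 22 and 3 to 9 in WT and 28 to 29, 29 to 29 and 2 to 7 in KO. The F-test called 3 to 10 members and 111 to 521 genes. KO minus WT, the peroxisomal minus mitochondrial difference with Hao2 counted ranged from 0.22 to 0.41 with TNFa, 0.32 to 0.51 with TGFb and 0.15 to 0.28 with CM; without Hao2 it was 0.09, 0.15 and 0.04 (0.34, 0.41 and 0.21 with it).

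With the replicate number as a block, 7, 23 and 13 members were called in KO against WT with TNFa, TGFb and CM, 23 on average and 5 in the F-test; for TGFb against TNFa, CM against TNFa and CM against TGFb, 19, 20 and 7 in WT and 29, 29 and 7 in KO. Same-numbered libraries of different groups correlated at -0.068 to 0.054 in 45 pairs, 0 above 0.1. Other pairs correlated at -0.063 to 0.056, so no effect of the replicate number was seen over all genes. Whether same-numbered libraries share an animal or a preparation cannot be read from these correlations.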
